A study of Mus musculus with 6 samples.

Results

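The MHC class II presentation genes are the genes that build, load and edit the surface molecule with which antigen-presenting cells show peptides to CD4+ T cells. They were chosen by symbol, and all 10 symbols (H2-Aa, H2-Ab1, H2-Eb1, H2-DMa, H2-DMb1, H2-DMb2, H2-Oa, H2-Ob, Cd74 and Ciita) were found among the 31053 genes listed. Their levels were read by single-cell RNA sequencing in dorsal skin of female C57BL/6J mice aged 8 to 10 weeks, in 6 libraries that form 3 groups of 2. The Sham group was left untreated. The IMQ group was given a 5% imiquimod cream, 62.5 mg daily over 4 days, and the IMQ+SHP099 group the same cream together with SHP099 by gavage, 10 mg/kg daily over 4 days. Imiquimod activates the receptor TLR7 and induces psoriasis-like inflammation, and SHP099 is an allosteric inhibitor of the phosphatase SHP2. Each library pools the skin of several mice, so single mice are not resolved and a p-value measures the spread between pools. All 3 groups share strain and sex, and no group carried an engineered allele.

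A class II molecule is a pair of an alpha and a beta chain. H2-Aa and H2-Ab1 encode the chains of I-A, and H2-Eb1 encodes the beta chain of I-E, whose alpha chain is not made in C57BL/6 mice. The chains assemble on the invariant chain, encoded by Cd74, which blocks the groove and steers the complex to endosomes, where H2-DM (H2-DMa with H2-DMb1 or H2-DMb2) exchanges the remnant of the invariant chain for antigen peptides and H2-DO (H2-Oa with H2-Ob) restrains H2-DM. Ciita encodes CIITA, a coactivator that binds no DNA itself and is recruited by proteins sitting on the X and Y boxes of these promoters. Dendritic cells and the Langerhans cells of the epidermis express the pathway constitutively, macrophages raise it under interferon gamma, and most other cells carry little of it.

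In the GRCm38 build, 8 of the 10 genes lie on chromosome 17 within 224.3 kb, from 34092340 to 34316674. Their order is H2-Oa, H2-DMa, H2-DMb2, H2-DMb1, H2-Ob, H2-Ab1, H2-Aa and H2-Eb1, and of these only H2-Aa is on the minus strand. Ciita lies on chromosome 16 (10480059 to 10528418, plus strand) and Cd74 on another chromosome. RefSeq promoter windows of 250 bases upstream of the start were at hand for 7 members, H2-Oa, H2-DMa, H2-DMb2, H2-DMb1, H2-Ob, H2-Aa and H2-Eb1. These were 8 windows, as H2-DMa has a start at 34122832 and another at 34125518. The Y box core GATTGG (searched on both strands) was present in a window of all 7, against 14.6% of all 32851 promoters of that table. On the gene's strand it lay 44 to 91 bases from the start in 6 of them. In H2-DMa it lay at 199 bases, and only for the start at 34125518. H2-Eb1 also held it on the other strand, at 35 bases. The X box letters, AAC followed after 3 bases by TGATG (both strands) and read off the X boxes of these same windows, were present in H2-DMb2, H2-DMb1, H2-Ob and H2-Eb1, starting 27 to 30 bases before GATTGG, against 0.539% of all promoters. Only 23 promoters (0.070%) held both, and 4 of these were members. The letters were taken from the members, so these shares describe the windows and test nothing. An 86-base stretch ending 40 bases upstream is shown for 5 starts, to show where the letters match and where they do not. The matched letters of either box are in capitals and all else is in lower case (RefSeq, GRCm38.p6, 5′ to 3′ on the gene's strand). H2-Eb1 is chr17:34305742-34305827 (plus), H2-Aa chr17:34287863-34287948 (minus), H2-DMb2 chr17:34145124-34145209 (plus), H2-Ob chr17:34238780-34238865 (plus) and H2-DMa chr17:34122707-34122792 (plus).
H2-Eb1: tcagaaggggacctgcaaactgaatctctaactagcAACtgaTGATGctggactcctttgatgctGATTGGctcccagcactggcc
H2-Aa: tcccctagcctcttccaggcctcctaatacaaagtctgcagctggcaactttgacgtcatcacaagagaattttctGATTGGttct
H2-DMb2: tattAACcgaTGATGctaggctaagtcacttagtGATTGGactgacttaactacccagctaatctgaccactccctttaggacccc
H2-Ob: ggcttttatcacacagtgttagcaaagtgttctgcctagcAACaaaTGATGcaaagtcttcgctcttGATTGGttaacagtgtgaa
H2-DMa: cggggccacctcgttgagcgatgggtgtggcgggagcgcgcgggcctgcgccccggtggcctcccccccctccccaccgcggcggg
H2-Eb1, H2-DMb2 and H2-Ob show both boxes in the same order, and H2-Aa shows the Y box letters alone. The first start of H2-DMa (34122832) shows neither in this stretch, and the Y box letters of H2-DMa belong to its other start, which is not shown.

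The files held 55201 cell barcodes, of which 50850 were kept, with 53913865 to 188283327 UMIs (tags that each mark one captured molecule) per library and a median of 5645 to 18263.5 UMIs per kept cell. Any pair of libraries shared 12 to 30 barcodes, at most 0.391% of the smaller library. Cells were gated on marker genes that include no member, into 557 dendritic cells (12 to 401 per library), 353 Langerhans cells (19 to 109), 522 macrophages (30 to 294), 15046 keratinocytes (419 to 5756), 1282 endothelial cells (106 to 432) and 19735 fibroblasts (1078 to 5870). The dendritic cells and macrophages of Sham replicate 2 outnumber those of the other 5 libraries together, and the dendritic cells of the IMQ+SHP099 libraries are only 16 and 12. Each panel of markers was present in its class, with the 7 Langerhans markers at 14510 to 28810 CPM (UMIs per 1000000 UMIs of the class) in Langerhans cells, the 15 dendritic markers at 2630 to 9916 in dendritic cells and the 13 macrophage markers at 14470 to 19510 in macrophages. A further 334 cells that scored highest for Langerhans markers were left out because they also carried markers of a non-immune class, in 312 of them most of all those of keratinocytes. Pericytes and smooth muscle cells (2513, called mural cells here), which should lack the genes, were read in the same way for comparison. Levels are given as CPM of a gene in a class and library. They are compared between classes and libraries, not between genes, and groups are given in the order Sham, IMQ, IMQ+SHP099 with replicates 1 and 2. Where libraries of a group are said to lie above or below those of another, this describes the values only. The share of all genes that separate in this way is not given.

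The gated classes fell into 2 tiers. Cd74 in Langerhans cells stood at 46750 and 31306 CPM in Sham, 31526 and 32639 under IMQ, and 27951 and 27280 under IMQ+SHP099. In dendritic cells it stood at 38114 and 26395, 20550 and 15875, and 14149 and 10987. In macrophages it stood at 15170 and 10049, 1241 and 3430, and 2720 and 1874. Langerhans and dendritic cells thus overlapped in Sham and did not overlap in either treated group, and macrophages lay below both in every group. Keratinocytes (6.32 to 27.9), fibroblasts (2.94 to 23.4) and mural cells (1.26 to 17.8) stayed at or under 27.9, with overlapping ranges. Endothelial cells ran from 10.1 to 732, and 2 libraries, Sham replicate 1 (732) and IMQ+SHP099 replicate 2 (234), stood above the rest of their class. H2-Aa, H2-Ab1, H2-Eb1 and H2-DMa showed the same upper tier, with H2-DMa at 1255 to 2634 in Langerhans cells, 324 to 1299 in dendritic cells and 188 to 464 in macrophages. The plot of levels by class and library shows these tiers for each of the 10 genes.

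**Figure D1:**
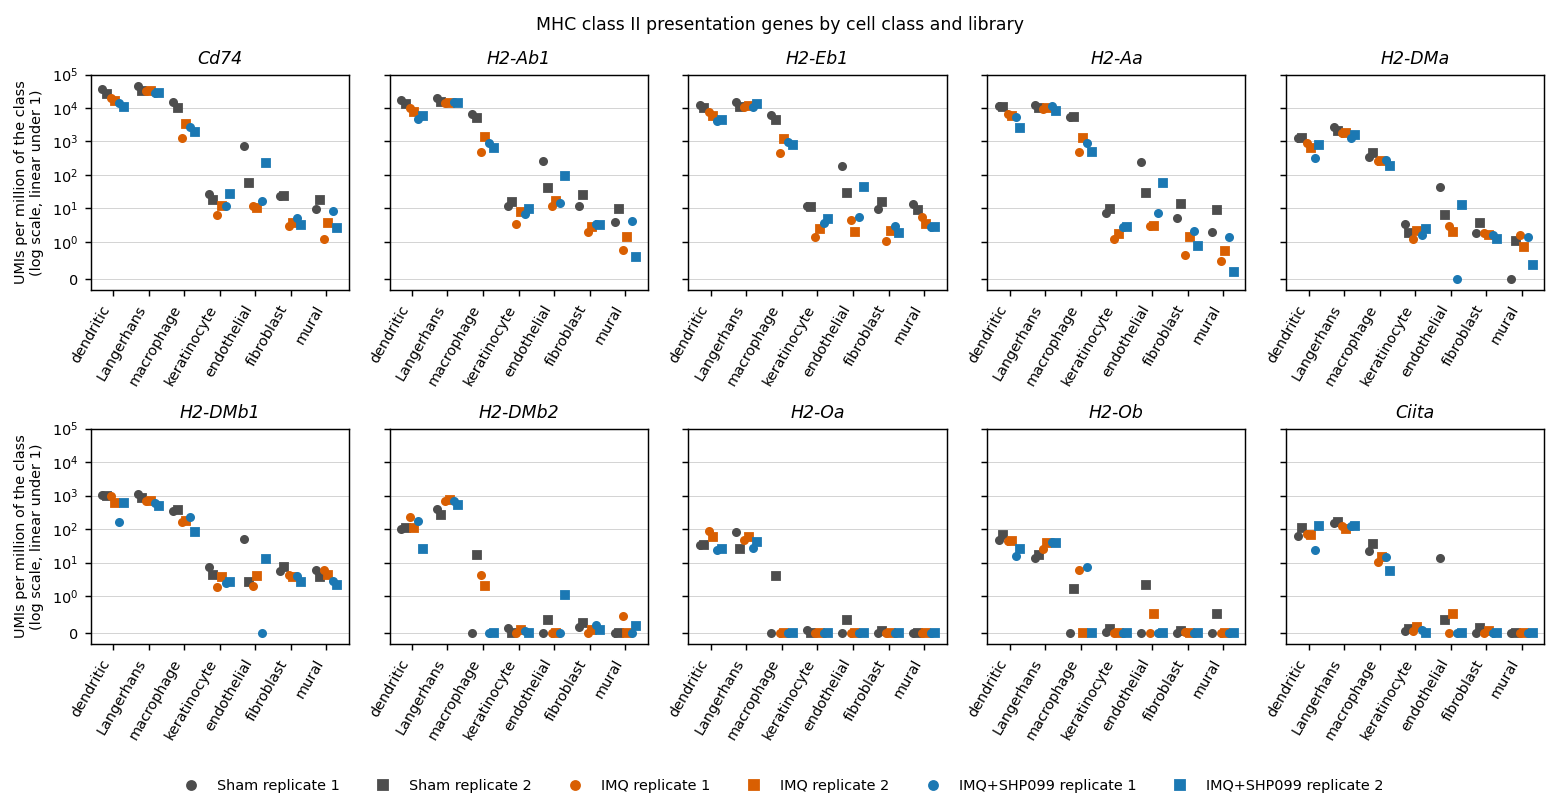
Level of each member (CPM, log axis that turns linear under 1) in 7 gated cell classes, mural standing for pericytes and smooth muscle cells; each point is 1 of the 6 libraries. Cd74 lies at or above 10987 in all dendritic and Langerhans sums and at or under 27.9 in all keratinocyte, fibroblast and mural sums, while Ciita is at 35.2 or lower outside those 2 classes.

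The low-level members separated the upper tier further. Ciita stood at 102 to 167 CPM in Langerhans cells, 23.1 to 126 in dendritic cells and 5.53 to 35.2 in macrophages. In keratinocytes and fibroblasts no library passed 0.168 for Ciita, and in mural cells no UMI of it was counted in any library. H2-DMb2 was found mainly in Langerhans cells (261 to 729) and dendritic cells (25.3 to 234), and reached at most 16.4 in macrophages. H2-Oa stood at 25.7 to 83.2 in Langerhans and 23.1 to 85.8 in dendritic cells, and H2-Ob at 14.1 to 42.3 and 15.4 to 67.1. Both were at 4.10 (H2-Oa) and 7.27 (H2-Ob) or lower in macrophages. H2-DMb1 and H2-DMb2 are close paralogs, so reads shared between them may be lost or misassigned, and their levels are uncertain to that extent.

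Macrophages were compared to ask whether the cream, with or without the SHP2 inhibitor, changed the pathway in cells that can raise and lower it. The classical chains and the invariant chain fell in IMQ. H2-Aa stood at 5345 and 5471 CPM in Sham, 476 and 1228 under IMQ, and 916 and 497 under IMQ+SHP099. H2-Ab1 stood at 6689 and 4874, 474 and 1325, and 931 and 624, and H2-Eb1 at 6241 and 4263, 443 and 1222, and 989 and 801. In each of these genes, as in Cd74, all 4 treated libraries lay below both Sham libraries, and the ranges of the treated groups overlapped. The log2 fold change of IMQ against Sham, from edgeR's quasi-likelihood test on UMIs summed per library, was -2.72 (SE 0.50, adjusted p = 0.0305) for H2-Aa, -2.76 (SE 0.51, adjusted p = 0.0323) for H2-Ab1, -2.73 (SE 0.51, adjusted p = 0.0323) for H2-Eb1 and -2.51 (SE 0.51, adjusted p = 0.0479) for Cd74. The number of members past the adjusted threshold of 0.05 was 4 of the 6 tested, all lower, where 0.625% of all 4799 genes were called in either direction. The median over the 6 members was -2.62 on the log2 scale and that over all genes -0.02.

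The exchange factor H2-DM moved less in macrophages. H2-DMa stood at 336 and 464 CPM in Sham, 262 and 259 under IMQ, and 284 and 188 under IMQ+SHP099, a log2 fold change of -0.66 (SE 0.37, edgeR adjusted p = 0.539) for IMQ against Sham. H2-DMb1 stood at 358 and 379, 163 and 168, and 225 and 82.9, with -1.19 (SE 0.42, adjusted p = 0.288). Both treated groups lay below Sham in both genes, but neither passed the threshold. H2-DMb2, H2-Oa, H2-Ob and Ciita had too few UMIs to be tested. Ciita, the coactivator, stood at 22.4 and 35.2 in Sham, 10.3 and 14.4 under IMQ, and 14.5 and 5.53 under IMQ+SHP099, with all treated libraries below both Sham libraries.

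In IMQ+SHP099 against Sham, 3 members passed in macrophages, H2-Aa (-2.88, SE 0.50, edgeR adjusted p = 0.0224), H2-Ab1 (-2.85, SE 0.52, adjusted p = 0.0276) and H2-Eb1 (-2.51, SE 0.51, adjusted p = 0.0472), while Cd74 (-2.41, SE 0.51, adjusted p = 0.0512) did not. The share of all genes called was 0.792%. Both contrasts share the Sham libraries and are not independent. For IMQ+SHP099 against IMQ, 0 of 6 members passed by edgeR or DESeq2, none had an unadjusted p under 0.05, and 0% of all genes were called by edgeR. The log2 fold changes ran from -0.16 (H2-Aa, SE 0.48) to 0.23 (H2-Eb1, SE 0.48), each smaller than its SE. The calls against Sham were not firm. In IMQ against Sham, 0 members passed with a stricter gate, with macrophages taken from Leiden clusters, or without IMQ replicate 1, IMQ+SHP099 replicate 1 or IMQ+SHP099 replicate 2. With IMQ+SHP099 set against Sham, 1 passed with the stricter gate and 0 with Leiden clusters or without either IMQ+SHP099 library. Over all 12 alternatives the log2 fold changes of the 4 genes in IMQ against Sham stayed between -3.64 and -1.95.

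**Figure D2:**
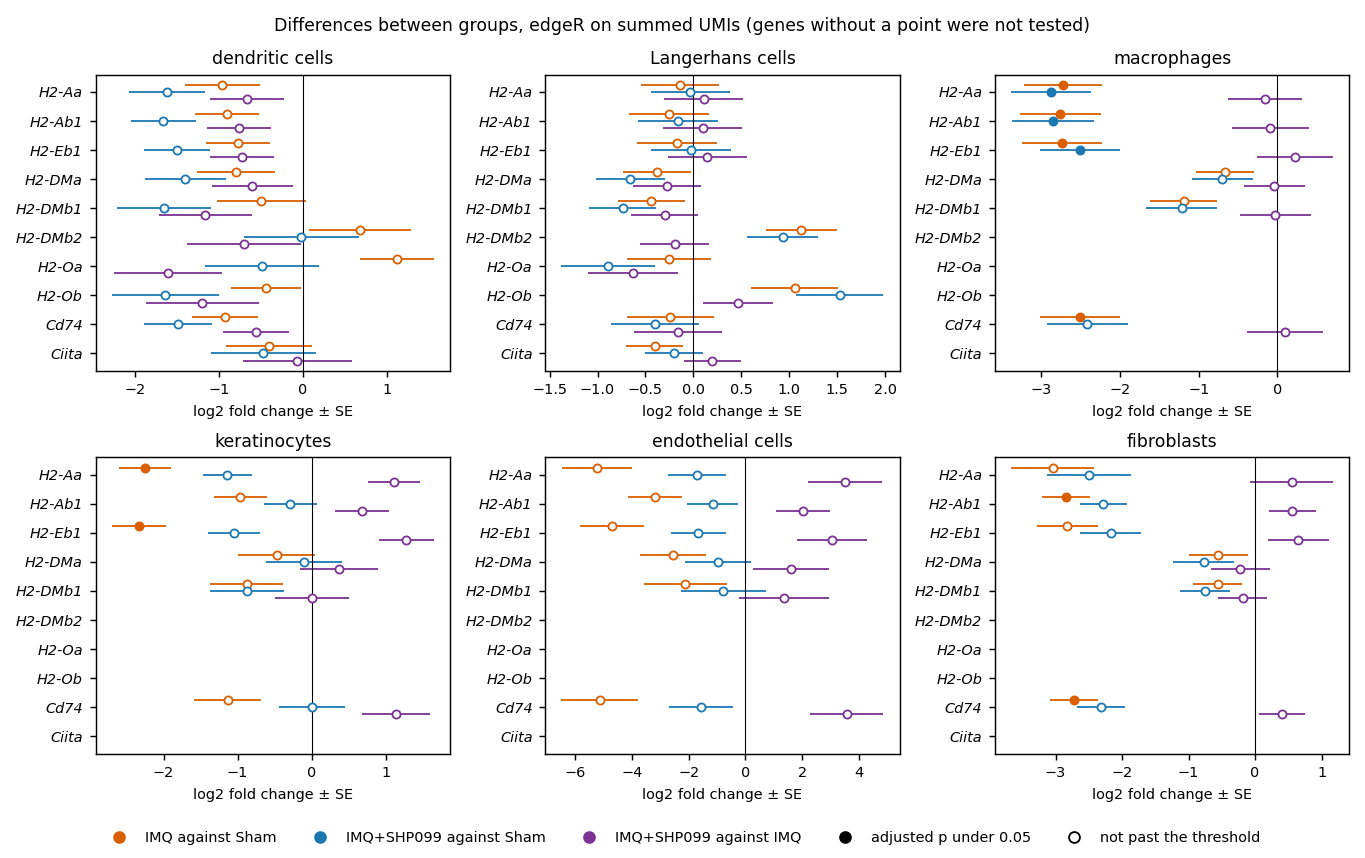
Log2 fold change ± SE (edgeR on UMIs summed per library, n = 2 libraries a group) of each member in 6 gated classes, for IMQ against Sham, IMQ+SHP099 against Sham and IMQ+SHP099 against IMQ; filled points passed the adjusted threshold of 0.05, and genes without a point had too few UMIs to be tested. Filled points lie at lower levels in the treated group in macrophages, keratinocytes and fibroblasts, and no contrast of IMQ+SHP099 with IMQ holds one.

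The difference in macrophages was also seen per cell. H2-Aa, H2-Ab1, H2-Eb1 and Cd74 together made up a median of 196.8 and 176 UMIs per 10000 UMIs of the cell in Sham, 2.90 and 4.34 under IMQ, and 9.08 and 3.29 under IMQ+SHP099. Cells with at least 10 per 10000 made up 92.3% and 85.0% of Sham macrophages, 38.1% and 45.2% under IMQ, and 46.7% and 32.4% under IMQ+SHP099. The 5 highest cells of a library held 49.9% and 13.3% of the macrophage UMIs of these genes in Sham, 57.0% and 49% under IMQ, and 66.1% and 74.4% under IMQ+SHP099, so the levels in the smaller libraries rest on few cells. After thinning each cell to 2000 UMIs, a Cd74 UMI was found in 92.9% (95% Clopper-Pearson interval 76.5 to 99.1) and 90.4% (85.9 to 93.9) of Sham macrophages, 50.9% (36.8 to 64.9) and 48.2% (34.7 to 62.0) of IMQ macrophages, and 66.7% (46.0 to 83.5) and 44.8% (26.4 to 64.3) of IMQ+SHP099 macrophages. As deposited, without thinning, these shares were 94.9% and 91.2%, 63.5% and 56.5%, and 66.7% and 52.9%. The share with a UMI of any member was 93.6% ± 1.05 in Sham, 70.6% ± 1.14 under IMQ and 75.4% ± 13.9 under IMQ+SHP099 (SD, n = 2 each). By an exact permutation test (two-sided) each treated group gave p = 0.333 against Sham, the smallest that 2 libraries against 2 allow. The intervals cover counting error only.

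The macrophages of the groups also differed in other markers. The complement gene C1qa was at 3990 to 5258 CPM in all 6 libraries, and the 13 macrophage markers together at 19470 and 19200 in Sham, 16700 and 15620 under IMQ, and 19510 and 14470 under IMQ+SHP099, with each marker detected in every library. Folr2, a marker of resident macrophages, stood at 433 and 1066, 88.6 and 189, and 116 and 27.6, and the chemokine gene Pf4 at 3367 and 2741, 884 and 770, and 1418 and 309.5. Cd163, of the same panel, stood at 112 and 388, 107 and 24.65, and 65.46 and 11.05. Mrc1 of that panel did not separate the groups, at 485 and 1918, 657.5 and 554.6, and 618 and 237.6. Adgre1, which encodes the macrophage antigen F4/80, stood at 672 and 584 in Sham and at 895 to 950.5 in the treated libraries. Single monocyte markers went different ways, with Chil3 at 0 in both Sham libraries and 107 to 259.7 in the treated ones, and Ccr2 (59.7 and 285 in Sham, 94.5 to 168 treated), Plac8 (0 and 111 in Sham, 0 to 60.8 treated) and Ly6c2 (7.47 and 18.0 in Sham, 0 to 11.1 treated) highest in Sham replicate 2. The 8 monocyte markers (3 to 8 of them detected per library) together ran from 74.7 to 589 in Sham, 328 to 616 under IMQ and 349 to 453 under IMQ+SHP099, and the 15 dendritic markers (4 to 13 detected) from 314 to 794, 600 to 672 and 414.5 to 618. The part of these differences in the fall of the class II genes was not tested. In the cells gated as monocytes the median of the 4 genes per 10000 UMIs was 80.4 and 356 in Sham (5 and 62 cells), 0.87 and 0 under IMQ (355 and 338 cells), and 2.09 and 1.31 under IMQ+SHP099 (17 and 254 cells), so the treated libraries lay below Sham in this class too.

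**Figure D3:**
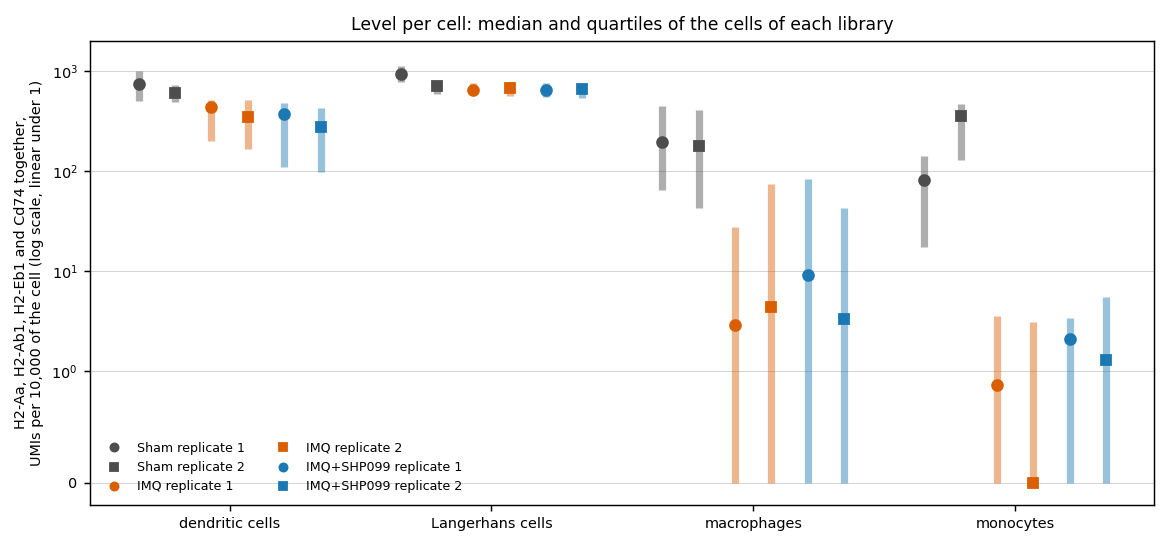
UMIs of H2-Aa, H2-Ab1, H2-Eb1 and Cd74 together per 10000 UMIs of the cell (log axis that turns linear under 1) in 4 classes; points are the median over the cells of a library and bars run from the lower to the upper quartile. Langerhans medians lie between 650 and 934 in all 6 libraries, whereas macrophage medians are 176 or higher in Sham and 9.08 or lower in the treated libraries; Sham replicate 1 holds only 5 monocytes.

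Dendritic cells, the main presenters to naive T cells, held lower values of the classical chains in the treated libraries, but no member passed the threshold. H2-Ab1 stood at 16952 and 13224 CPM in Sham, 9718 and 7478 under IMQ, and 4696 and 5765 under IMQ+SHP099. Its 3 groups did not overlap, a description without the share of all genes that separate so. H2-Aa stood at 11774 and 10521, 6558 and 5590, and 5228 and 2453, and H2-Eb1 at 12236 and 9749, 7696 and 5972, and 4063 and 4438, again in the order Sham, IMQ, IMQ+SHP099. In IMQ against Sham, edgeR called 0 of 10 members, where it called 0.750% of all genes, and DESeq2 called 0 members. At an unadjusted p under 0.05 stood 3 members, which did not go 1 way. H2-Ab1 and Cd74 were lower, and H2-Oa was higher (log2 fold change 1.12, SE 0.44, edgeR adjusted p = 0.386). The log2 fold changes of H2-Aa, H2-Ab1, H2-Eb1 and Cd74 lay between -0.96 and -0.78 (SE 0.38 to 0.44). In IMQ+SHP099 against Sham, edgeR called 0 of 10, where it called 0.558% of all genes. Of the 10, 7 had an unadjusted p under 0.05, and DESeq2 called 1, H2-Ab1. The shares of all genes given here and for the other classes are those past edgeR's adjusted threshold. No share of all genes is set beside counts at an unadjusted p or by DESeq2. Such counts are therefore not read as particular to the members. The lowest adjusted p was that of H2-Ab1 (log2 fold change -1.67, SE 0.39, edgeR adjusted p = 0.0815). For IMQ+SHP099 against IMQ, 0 of 10 passed by either tool (1 at an unadjusted p under 0.05, H2-Oa at -1.61, SE 0.64, edgeR adjusted p = 0.999), with 0% of all genes called by edgeR. Without IMQ+SHP099 replicate 2, H2-DMb1 passed in IMQ+SHP099 against IMQ, and H2-DMa and H2-DMb1 passed in IMQ+SHP099 against Sham, 1 and 2 members.

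The make-up of the dendritic class differed between groups as well. Cells of the Cd209a type made up 76.6% and 74.3% of it in Sham, 38.5% and 35.7% under IMQ, and 31.2% and 6 of 12 cells under IMQ+SHP099, and cells of the migratory Ccr7 type made up 68.8% (11 of 16 cells) in IMQ+SHP099 replicate 1 against 4.24% to 23.8% elsewhere. Markers of Langerhans cells, as a panel of 7, stood at 714 and 585 CPM, 2918 and 2883, and 8744 and 455. This panel is not specific to Langerhans cells, as it stood at 929 to 2120 in keratinocytes and 383 to 679 in fibroblasts. Within the Cd209a type alone, Cd74 stood at 38490 and 27459 in Sham (36 and 298 cells), 19819 and 10606 under IMQ (15 cells each), and 16964 and 8754 under IMQ+SHP099 (5 and 6 cells). Within the Xcr1 type, the class that cross-presents antigen, it stood at 40526 and 25428 in Sham (5 and 86 cells), 20583 and 19689 in IMQ (17 cells each), and 16257 in the 5 cells of IMQ+SHP099 replicate 2. Within the Ccr7 type it stood at 31313 and 16724 in Sham (6 and 17 cells), 21325 and 14719 under IMQ (7 and 10 cells), and 13523 and 2318 under IMQ+SHP099 (11 cells and 1 cell). The treated libraries lay below both Sham libraries in the Cd209a and Xcr1 types, whereas in the Ccr7 type Sham and IMQ overlapped, and H2-Eb1 of IMQ replicate 1 (8797.5) was above both Sham libraries (7180 and 6891). These differences within types carry no test.

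Langerhans cells kept high levels of the pathway in all 6 libraries. H2-Ab1 stood at 19736 and 15516 CPM in Sham, 13853 and 14534 under IMQ, and 14889 and 14326 under IMQ+SHP099, and every thinned Langerhans cell held a UMI of at least 1 member. The log2 fold changes of H2-Aa, H2-Ab1, H2-Eb1 and Cd74 lay between -0.26 and -0.14 in IMQ against Sham (SE 0.41 to 0.46). These SEs are larger than the differences themselves. By edgeR, 0 of 10 members passed in any contrast (2, 0 and 2 at an unadjusted p under 0.05 in IMQ against Sham, IMQ+SHP099 against IMQ and IMQ+SHP099 against Sham; 0 by DESeq2 in each), where 2.10%, 0% and 2.01% of all genes were called.

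The members with the lowest p in Langerhans cells had higher values in the treated libraries, though none passed the threshold. H2-DMb2, a beta chain of the exchange factor, stood at 405 and 261 CPM in Sham, 702 and 729 under IMQ, and 686 and 508 under IMQ+SHP099. The log2 fold change was 1.13 (SE 0.37, edgeR adjusted p = 0.149) in IMQ against Sham and 0.93 (SE 0.37, adjusted p = 0.262) in IMQ+SHP099 against Sham. After thinning, H2-DMb2 was found in 48.5% and 36.8% of Sham cells, 71.9% and 83.0% of IMQ cells, and 77.1% and 52.2% of IMQ+SHP099 cells. H2-Ob, a chain of the inhibitor H2-DO, stood at 14.1 and 17.1, 25.1 and 38.0, and 42.3 and 37.9, with log2 fold changes of 1.06 (SE 0.45, edgeR adjusted p = 0.304) and 1.52 (SE 0.46, adjusted p = 0.117). In both genes all treated libraries lay above both Sham libraries. H2-DMb1, the other beta chain, went the other way in value, from 1136.5 and 838 in Sham to 714 and 698 under IMQ and 605 and 493 under IMQ+SHP099 (log2 fold change of IMQ+SHP099 against Sham -0.74, SE 0.35, edgeR adjusted p = 0.372). These levels rest on 19 Langerhans cells in Sham replicate 2 and 23 in IMQ+SHP099 replicate 2. Without Sham replicate 1 the count of members called became 1 in each treated group against Sham, and without Sham replicate 2 it became 2 in IMQ+SHP099 against Sham.

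Keratinocytes, the epithelial cells of the epidermis, carried little of the genes, at most 27.9 CPM for Cd74. H2-Aa stood at 7.27 and 9.69 CPM in Sham, 1.2 and 1.68 under IMQ, and 2.88 and 2.81 under IMQ+SHP099. H2-Eb1 stood at 12 and 11.1, 1.44 and 2.47, and 3.79 and 5.00. Both genes were lower in all treated libraries than in both Sham libraries. In IMQ against Sham, edgeR called H2-Aa (-2.25, SE 0.35, adjusted p = 0.00434) and H2-Eb1 (-2.33, SE 0.37, adjusted p = 0.00468), 2 of 6 members tested, beside 15.0% of all genes. Cd74 (-1.14, SE 0.45, edgeR adjusted p = 0.125) and H2-Ab1 (-0.96, SE 0.36, adjusted p = 0.104) did not pass. With IMQ+SHP099 set against Sham, 0 of 6 passed by edgeR, which called 16.5% of all genes. At an unadjusted p under 0.05 stood 2 members, and DESeq2 called 1, H2-Aa, with no share of all genes beside these counts. In IMQ+SHP099 against IMQ 0 of 6 passed by either tool, beside 0% of all genes by edgeR. The 3 members at an unadjusted p under 0.05 were higher, H2-Aa (1.11, SE 0.35), H2-Eb1 (1.28, SE 0.37) and Cd74 (1.14, SE 0.46). With keratinocytes taken from Leiden clusters 0 members passed in IMQ against Sham, and without IMQ replicate 1 only 1 did, H2-Eb1. Without Sham replicate 2, 1 member (H2-Eb1) passed in IMQ+SHP099 against Sham.

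After thinning to 2000 UMIs, a UMI of any member was found in 11.3% and 12.3% of keratinocytes in Sham, 3.6% and 4.26% under IMQ, and 4.53% and 4.27% under IMQ+SHP099. In mural cells these shares were 8.99% and 7.65%, 3.26% and 3.44%, and 4.55% and 1.32%, also higher in both Sham libraries than in the treated ones. The UMIs of mural cells were not in the ratio found over all cells, where H2-DMb1 stood at 0.0395 and 0.0434 and H2-Eb1 at 0.335 and 0.342 per Cd74 UMI in the IMQ libraries. In mural cells of IMQ replicate 1, 38 UMIs of H2-DMb1 and 35 of H2-Eb1 stood beside 8 of Cd74. The mural ratio of H2-DMb1 to Cd74 was lower in Sham replicate 2 (0.206, on 34 Cd74 UMIs) and IMQ+SHP099 replicate 1 (0.333, on 6). The source of the mural UMIs was not tested. Over all cells of a library, Cd74 stood at 1258 and 1971 CPM in Sham, 591 and 380 under IMQ, and 294 and 238 under IMQ+SHP099. Median depths of the deposited cells were 9528.5 to 35030.5 UMIs in keratinocytes and 4906 to 11090 in mural cells. Without thinning, the share of keratinocytes with a UMI of any member was 42.2% and 55.3% in Sham. Cd207, the Langerhans marker, stood in keratinocytes at 2.06 and 0.47, 0.12 and 0.21, and 0.39 and 0. The 6 leukocyte markers together stood at 5.574 and 8.452, 3.161 and 5.402, and 1.315 and 5.516. Cd207 and the leukocyte markers were thus also higher in both Sham libraries than in all treated ones, the latter by a narrow margin. How much of the keratinocyte difference lies in the cells themselves was not tested, and no expression by keratinocytes is read from these shares. In mural cells the unthinned shares were 17.2% and 28.9% in Sham.

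Fibroblasts also carried little of the genes, and other members passed than in keratinocytes, a difference between the classes that was not tested. H2-Ab1 stood at 12 and 24.7 CPM in Sham, 1.94 and 2.74 under IMQ, and 3.48 and 3.1 under IMQ+SHP099, and Cd74 at 22.8 and 23.4, 2.94 and 3.69, and 5.14 and 3.21. In both genes all treated libraries were below both Sham libraries. In IMQ against Sham, edgeR called H2-Ab1 (-2.84, SE 0.36, adjusted p = 0.0309) and Cd74 (-2.73, SE 0.36, adjusted p = 0.0326), 2 of 6 tested, where 0.642% of all genes were called. H2-Eb1 (-2.82, SE 0.46, edgeR adjusted p = 0.0533) and H2-Aa (-3.04, SE 0.62, adjusted p = 0.0877) did not pass. In IMQ+SHP099 against Sham, 0 of 6 passed by edgeR, which called 0.242% of all genes. At an unadjusted p under 0.05 stood 4 members, and DESeq2 called 4, with no share of all genes beside these counts. In IMQ+SHP099 against IMQ 0 of 6 passed by either tool, with 0 at an unadjusted p under 0.05, beside 0% by edgeR. The call in IMQ against Sham was lost without any one of Sham replicate 2 or the 4 treated libraries, and without Sham replicate 1 the count in IMQ+SHP099 against Sham became 2. A UMI of any member was found in 9.04% and 17.6% of thinned Sham fibroblasts, 2.73% and 3.12% under IMQ, and 3.67% and 2.57% under IMQ+SHP099. In Sham replicate 2 the fibroblast share stood above the 7.65% of mural cells, and in Sham replicate 1 it was close to the mural share. It lay below the mural share in both IMQ libraries and IMQ+SHP099 replicate 1, and above it in IMQ+SHP099 replicate 2. The leukocyte markers together stood at 9.37 to 16.2 CPM in fibroblasts and did not separate the groups, nor did the Langerhans marker Cd207. The dendritic marker Cd209a stood at 0.158 and 0.577 in Sham (1 and 19 UMIs), 0 and 0 under IMQ, and 0 and 0.0369 under IMQ+SHP099. It was thus lower in the treated libraries, on few UMIs. The panel of 15 dendritic markers did not separate the groups in fibroblasts, at 981 and 425, 967 and 867, and 925 and 1165. How much of the fibroblast difference lies in the cells themselves was not tested.

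**Figure D4:**
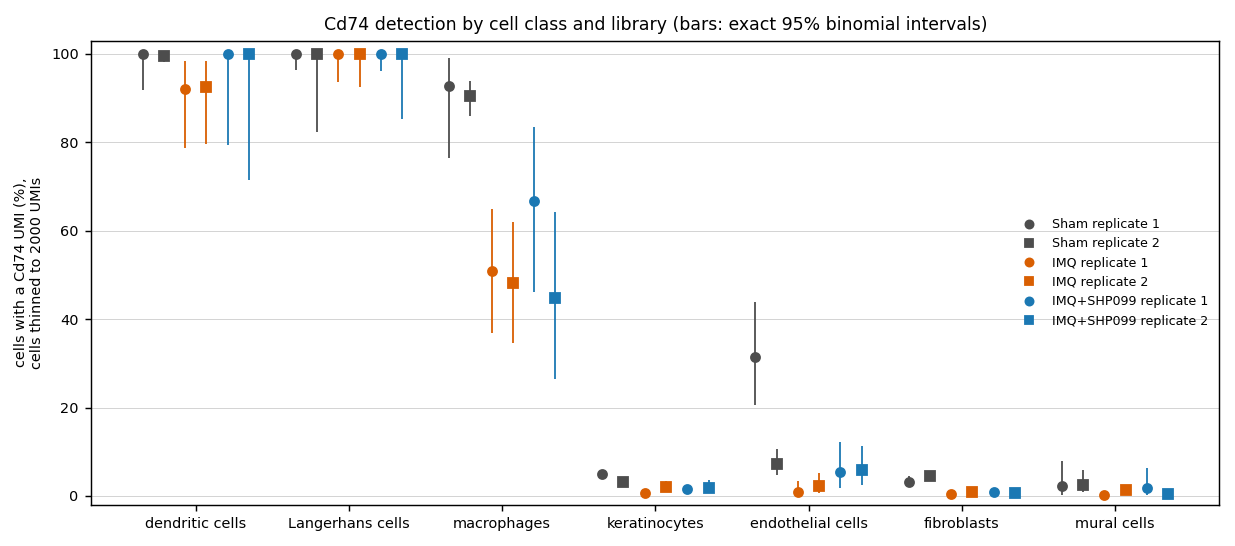
Share of cells with at least 1 UMI of Cd74 after each cell was thinned to 2000 UMIs, by class and library, with exact 95% binomial intervals (counting error only); mural cells are pericytes and smooth muscle. Shares are 92.1% or higher in dendritic and Langerhans cells, fall from above 90% in Sham to between 44.8% and 66.7% in treated macrophages, and stay under 5% in keratinocytes, fibroblasts and mural cells.

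Endothelial cells, which line vessels, held the genes in a subset of cells that varied by library. Cd74 stood at 732 and 58.4 CPM in Sham, 11.5 and 10.1 under IMQ, and 16.6 and 234 under IMQ+SHP099, and H2-Aa at 246 and 28.4, 3.00 and 3.03, and 7.36 and 57.4. Sham lay above IMQ in both genes, but the 2 libraries of Sham, and those of IMQ+SHP099, differed from each other by over 10-fold in Cd74. In IMQ against Sham edgeR called 0 of 6 members, where it called 0.183% of all genes. At an unadjusted p under 0.05 stood 4 members, and DESeq2 called 1, H2-Aa, with no share of all genes beside these counts. The log2 fold changes were large and uncertain, at -5.23 for H2-Aa (SE 1.23, edgeR adjusted p = 0.148) and -5.13 for Cd74 (SE 1.36, adjusted p = 0.183). Without Sham replicate 1 the count became 2, and without Sham replicate 2 it became 4. For IMQ+SHP099 against IMQ, 0 of 6 passed by either tool, with 0% of all genes called by edgeR. The 3 members at an unadjusted p under 0.05 were higher, H2-Aa (3.52, SE 1.31), H2-Eb1 (3.06, SE 1.23) and Cd74 (3.57, SE 1.30). With IMQ+SHP099 set against Sham, 0 of 6 passed by either tool (0 at an unadjusted p under 0.05), where 0.0710% of all genes were called.

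The endothelial signal sat in few cells except in Sham replicate 1, where 26.4% of the cells reached the level below. Cells with at least 10 UMIs of the 4 genes per 10000 numbered 28 of 106 in Sham replicate 1, 18 of 432 in Sham replicate 2, 1 of 220 and 2 of 243 under IMQ, and 3 of 123 and 11 of 158 under IMQ+SHP099. In IMQ+SHP099 replicate 2 a single cell held 41.4% of the UMIs. In Sham replicate 1 these cells held more of the blood vessel gene Plvap than the other endothelial cells (1182 against 258 CPM) and less of the lymphatic gene Prox1 (44.1 against 560.1). IMQ+SHP099 replicate 2 showed the same order (Plvap 1983 against 584, Prox1 102.6 against 559), whereas in Sham replicate 2 it was turned around (Plvap 1155 against 1545, Prox1 718 against 309.5).

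The ratio of members within a class showed which of them moved together. In macrophages H2-Ab1 stood at 0.441 and 0.485 UMIs per Cd74 UMI in Sham, 0.382 and 0.386 under IMQ, and 0.342 and 0.333 under IMQ+SHP099, beside 0.332 to 0.525 in dendritic cells and 0.422 to 0.533 in Langerhans cells. H2-DMa stood at 0.0222 and 0.0462 per Cd74 UMI in Sham macrophages, 0.211 and 0.0754 under IMQ, and 0.104 and 0.100 under IMQ+SHP099. H2-DMb1 stood at 0.0236 and 0.0377, 0.131 and 0.0491, and 0.0829 and 0.0442. Both ratios were higher in all 4 treated libraries than in both Sham libraries, that is, H2-DM lost less than Cd74 did. In Langerhans cells the H2-DMa ratio stayed between 0.0449 and 0.0676. These ratios carry no test, and in treated macrophages they rest on 15 to 127 UMIs of an H2-DM gene.

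**Figure D5:**
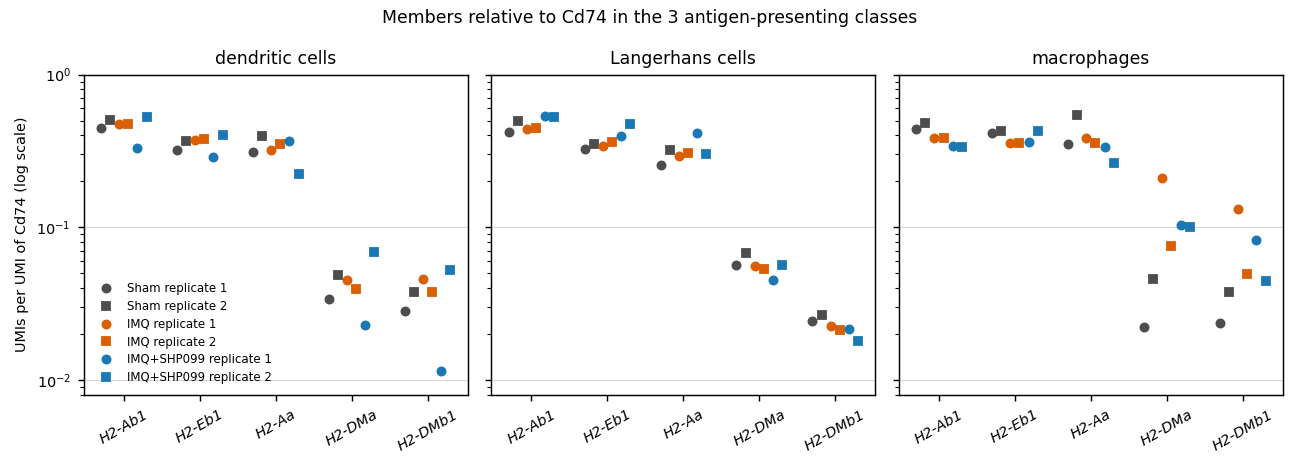
UMIs of each classical chain and H2-DM gene per UMI of Cd74 (log axis) in dendritic cells, Langerhans cells and macrophages; each point is a library. The chains stay between 0.223 and 0.545 in all 3 classes, while H2-DMa and H2-DMb1 in macrophages are higher in every treated library (from 0.0442) than in both Sham libraries.

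Other genes of the pathway were read in the same fits as 5 lists. No list gene passed in dendritic cells, macrophages, endothelial cells or fibroblasts in any contrast, nor in any class in IMQ+SHP099 against IMQ. In Langerhans cells 1 of 11 regulators, the interferon gamma receptor chain Ifngr1, rose in IMQ against Sham (4.71 and 17.1 CPM in Sham, 39.0 and 77.3 in IMQ; log2 fold change 2.76, SE 0.59, edgeR adjusted p = 0.0250). Of the 5 promoter-binding genes tested there, Creb1 fell (48.7 and 133 in Sham, 15.6 and 27.1 in IMQ; log2 fold change -1.88, SE 0.45, adjusted p = 0.0440). Of the 4 co-stimulation and checkpoint ligands tested, Cd80, which gives T cells a second signal, rose in IMQ (3.14 and 8.56 in Sham, 24.3 and 69.1 in IMQ; log2 fold change 3.23, adjusted p = 0.0268) and in IMQ+SHP099 (68.2 and 53.1; 3.78, adjusted p = 0.00952). Socs1, an inhibitor of cytokine signalling (1.71, edgeR adjusted p = 0.0373), and Cd274, the checkpoint ligand PD-L1 (3.42, adjusted p = 0.0373), passed in IMQ+SHP099 against Sham, but with cells taken from Leiden clusters the value of Cd274 turned to -0.95. In Langerhans cells no antigen-processing gene (8 tested) passed in any contrast. These calls stand beside 2.10% (IMQ against Sham) and 2.01% (IMQ+SHP099 against Sham) of all genes called in that class. The Sham levels rest on few UMIs, 3 and 4 for Ifngr1, 2 and 2 for Cd80 and 3 and 0 for Cd274 in replicates 1 and 2. Each of the calls in Langerhans cells was lost without at least 1 library, all but those of Creb1 without Sham replicate 1.

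In keratinocytes the regulators Socs1 (log2 fold change 2.11, edgeR adjusted p = 0.00403) and Prdm1 (3.28, adjusted p = 0.00271), the latter the repressor BLIMP-1, rose in IMQ against Sham, and Ifngr1 fell (-1.51, adjusted p = 0.0448), 3 of 11 tested. Prdm1 stood at 13.5 and 7.47 CPM in Sham, 101 and 75.3 under IMQ, and 74.1 and 134 under IMQ+SHP099. The protease Ctsd (1.52), the ligands Icosl (1.61) and Cd274 (1.69) rose as well, and Cd83, which protects surface class II from degradation, fell (-4.02, from 1.63 and 1.85 to 0.14 and 0). In IMQ+SHP099 against Sham, Socs1 (1.85), Prdm1 (3.57), the protease Lgmn (1.44), Cd80 (2.33), Icosl (1.90) and Cd274 (2.73) were higher and Cd83 (-3.30) lower, all with edgeR adjusted p of 0.0487 or lower. These calls stand beside 15.0% and 16.5% of all genes called in that class. Cd83 was at 512 to 1785 CPM in Langerhans cells and at most 1.85 in keratinocytes, where the Langerhans marker Cd207 was also higher in Sham, and whether its RNA lay in keratinocytes was not tested. The calls of Socs1 and Prdm1 in both contrasts, and of Cd274 in IMQ+SHP099 against Sham, held in every alternative run, and each other keratinocyte call of these lists was lost in at least 1.

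The share of a library's class II UMIs held by each class differed between libraries. Langerhans cells, 0.231% to 1.27% of the cells kept, held 24.3% and 4.13% of all member UMIs in Sham, 60.1% and 55.5% under IMQ, and 59.0% and 61.0% under IMQ+SHP099. Dendritic cells held 11.6% and 65.4%, 16.6% and 16.8%, and 3.11% and 7.02%. Macrophages held 0.695% to 7.74% and keratinocytes 0.417% to 3.49%. Ungated cells held 59.8% and 17.6% in Sham, 16.2% and 16.9% under IMQ, and 32.8% and 12.7% under IMQ+SHP099, and were the largest holder in Sham replicate 1. The Langerhans-like cells left out as mixed are among them, and held 49% and 2.65%, 4.62% and 4.5%, and 24.6% and 0%.

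Over the 36 sums of 6 classes and 6 libraries, the genes with the pattern most like the mean of H2-Aa, H2-Ab1, H2-Eb1 and Cd74 on the log2 scale were Cd83 (Pearson r 0.954), Cd86 (0.952), Grb2 (0.952), Csf2ra (0.951) and Plek (0.95), among 6171 genes compared. H2-DMa (0.986), H2-DMb1 (0.975) and Ciita (0.967) stood above them, and H2-DMb2 (0.837), H2-Ob (0.830) and H2-Oa (0.818) below. The 36 points share libraries and fall into the 2 tiers of classes, so the values describe the tiers and carry no p. Cd86, a ligand that co-stimulates T cells, stood at 461.5 to 569 CPM in Langerhans cells, 75.9 to 779 in dendritic cells, 33.2 to 105 in macrophages and at most 0.365 in the other 3 classes. Grb2, an adaptor of receptor signalling, was present in every class. It stood at 208 to 335.5 in dendritic cells, Langerhans cells and macrophages and at 46.4 to 93.4 in the other 3 classes. It shared the split between these classes, over a narrower range.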

How the data were processed

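Skin cells of 6 libraries (2 each of Sham, IMQ and IMQ+SHP099, grouped by their titles) were read by droplet 3′ sequencing. The deposited counts are raw UMI counts per gene and barcode, made by the authors with Cell Ranger on GRCm38. A barcode was kept if it held fewer than 100000 UMIs, fewer than 6500 genes and less than 10% of its UMIs on mitochondrial genes. Cells were gated on 131 markers in 15 panels, none of them a member. Doublets were not called, and cells with markers of a second class were left out. The members and lists were chosen with earlier results of these data known. UMIs were summed per library and class and tested with edgeR 4.0.16 (TMM, filterByExpr, quasi-likelihood, Benjamini-Hochberg over all genes, threshold 0.05), all 6 libraries in 1 fit. DESeq2 1.42.0, no filter on low counts, a stricter gate, Leiden clusters (scanpy 1.11.5), a replicate block and leaving out each library were alternatives. On simulated data, the share of genes changed 4-fold in IMQ against Sham that was recovered was 47.5% to 81.5% over the 6 classes, and of genes changed 2-fold 0% to 4%. Shares of cells were compared after thinning each cell to 2000 UMIs, and library shares by exact permutation. Genes named are the members, the listed genes past the threshold and the 5 nearest patterns.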

Additional observations from a re-analysis of the deposited data

How the results depend on the processing

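Of 132 member fold changes recomputed, 0 changed direction and 45 no longer passed. Of 239 recomputed fold changes of the listed pathway genes, 62 no longer passed and 1 changed direction. Counts of members past the threshold moved as follows, with contrasts named in the order IMQ against Sham, IMQ+SHP099 against IMQ and IMQ+SHP099 against Sham. With DESeq2, dendritic cells gave 1 and keratinocytes 1 in the last contrast, endothelial cells 1 in the first, and fibroblasts 4 in the first and 4 in the last. With no filter on low counts, dendritic cells gave 4 in the last, keratinocytes 4, 1 and 1, endothelial cells 6, 4 and 4, and fibroblasts 4 in the first and 4 in the last. With the stricter gate, macrophages gave 0 in the first and 1 in the last, keratinocytes 1 in the last, and fibroblasts 1 in the first. With Leiden clusters, macrophages gave 0 in the first and 0 in the last, keratinocytes 0 in the first, and fibroblasts 2 in the last. The cause was not tested. The share of all genes called under each alternative is not set beside these counts or those below. They are therefore not read as particular to the members. Leaving out 1 library at a time gave 0 to 0, 0 to 1 and 0 to 2 in dendritic cells, 0 to 1, 0 to 0 and 0 to 2 in Langerhans cells, 0 to 4, 0 to 0 and 0 to 4 in macrophages, 1 to 2, 0 to 0 and 0 to 1 in keratinocytes, 0 to 4, 0 to 0 and 0 to 0 in endothelial cells, and 0 to 3, 0 to 0 and 0 to 2 in fibroblasts. A group left with 1 library was assumed to vary like the others.

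The replicate numbers share no stated animal or day, and deviations of same-numbered libraries correlated at -0.10 to 0.20 over 18 checks, so they were not taken as pairs. With the replicate block, keratinocytes gave 1 and fibroblasts 2 members in IMQ+SHP099 against Sham, and macrophages 4 in both contrasts with Sham.

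The value of Cd274 in Langerhans cells, IMQ+SHP099 against Sham, was -0.95 with Leiden clusters. The difference in the share of cells with any member changed sign in 5 of 54 recomputed values. It was -2.87 percentage points in dendritic cells (IMQ+SHP099 against Sham) when thinned to 1000 UMIs, and in IMQ+SHP099 against IMQ without thinning -8.13 in macrophages, -1.01 in keratinocytes, -1.06 in endothelial cells and -2.73 in fibroblasts. The stricter gate left under 10 dendritic cells in both IMQ+SHP099 libraries, so those contrasts were not run. The 16 and 12 dendritic cells of IMQ+SHP099 limit what that class can show.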
